A study of Mus with 2 samples.

Results

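Erythroid cells of the newborn mouse kidney were taken as the barcodes in which at least 20% of the unique molecular identifiers (UMIs, each counting 1 captured RNA molecule) came from genes of the Hba and Hbb families, which encode the alpha-like and beta-like chains of haemoglobin. Members were thus chosen by their measured haemoglobin share. This rule found 876 erythroid barcodes, called members below, among 11369 barcodes that had at least 2000 UMIs and at most 10% mitochondrial UMIs. Replicate 1 held 502 members of 6220 kept barcodes and replicate 2 held 374 of 5149. Members were compared with the 10493 other kept barcodes inside each library, and the Hba and Hbb genes were left out of the totals.

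The study measured RNA in single cells of kidneys at P0, the day of birth. Both libraries carried the genotype Rbpj c/- ; Foxd1cre/+. Rbpj is the DNA-binding partner of activated Notch receptors. Its conditional allele (c) is deleted by a Cre driven from Foxd1, a gene of renal stromal progenitors and not of the red cell line. The other allele is written as -, a null allele that does not depend on the Cre, so red cells carry it as well. The 2 control libraries that the design names (Rbpj c/+ ; Foxd1cre/+) were not analysed here. Mutant is therefore nowhere compared with control below, and what sets members apart was measured in mutant kidneys only. The labels do not say which animals the libraries came from. Xist, the RNA of the inactive X chromosome, stood at 1191 CPM (counts scaled to the same total) in the other kept barcodes of replicate 1 and at 0.200 in those of replicate 2, so they are not repeats of the same sample. How many animals each holds is not given. A p-value rests only on the spread between these 2 libraries, pooled over genes, and not on the spread of the single gene. Pairs of values below are in the order replicate 1, replicate 2.

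As background, red cells arise from progenitors that come to devote most of their RNA to globin, and in mammals the maturing cell then loses its nucleus, its mitochondria and its ribosomes. The reticulocyte that is left still holds RNA from the last stages, above all for globin chains, haem enzymes, membrane skeleton proteins and the machinery that removes organelles. In the kidney these cells come with the blood.

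Haemoglobin genes chose the members, so their share is a description and was not tested. Their median share was 87.0% and 84.2% of all UMIs, with a middle range (25th to 75th percentile) of 83.5% to 89.3% and of 80.6% to 86.6%. The highest member reached 94.0% and 92.4%. The 3 members nearest the threshold lay at 20.1%, 20.2% and 24.3% in replicate 1 and at 20.8%, 21.0% and 21.3% in replicate 2. The nearest barcodes outside it lay at 18.7%, 17.5% and 17.0%, and at 19.6%, 19.5% and 15.7%. Members made up 8.07% of the kept barcodes of replicate 1 (exact binomial 95% interval 7.41 to 8.78) and 7.26% of those of replicate 2 (6.57 to 8.01), where the intervals cover counting error only. Of the members, 12 and 13 lay between 20% and 50%, and most of the rest lay above 80%.

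**Figure D1:**
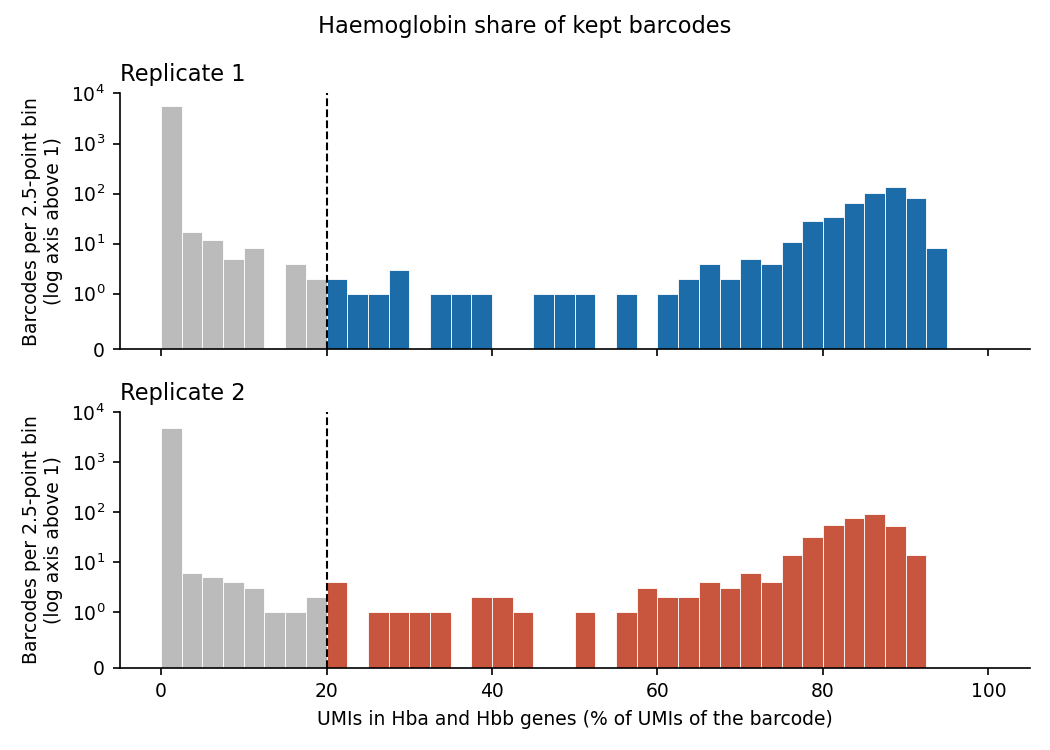
Share of UMIs in Hba and Hbb genes (x axis, percent) for all kept barcodes of each library, as barcodes per bin of 2.5 points (y axis, logarithmic above 1). Coloured bars are members and the dashed line is the threshold of 20%. Most members lie above 80%, and few barcodes lie between 20% and 50%.

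The 25 members under 50% differed from the rest in what else they held. Their median was 8940.5 and 7848 UMIs outside the haemoglobin genes, against 557.5 and 701 in members from 50%. They were 2.39% and 3.48% of the members and carried 23.4% and 29.4% of the members' UMIs outside the haemoglobin genes. Counts of called genes are therefore given for members from 50% as well, while the values of single genes and the comparison of the libraries at the end are for all members unless stated otherwise. No barcode was a member in both libraries, and 6 barcode sequences were kept in both.

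Nearly all haemoglobin UMIs came from 4 adult genes, 2 beta and 2 alpha. By the RefSeq annotation of GRCm38.p6 the beta genes lie on chromosome 7, Hbb-bt at 103812524 to 103813923 and Hbb-bs at 103826523 to 103827928. The alpha genes lie on chromosome 11, Hba-a1 at 32283672 to 32284486 and Hba-a2 at 32296492 to 32297310. Hbb-bs gave 56.2% and 59.6% of the members' haemoglobin UMIs and Hbb-bt gave 11.7% and 9.16%. Hba-a1 gave 18.6% and 24.6%, and Hba-a2 gave 13.3% and 6.61%. All 4 genes were found in each of the 502 and 374 members. The ratio of alpha to beta UMIs was 0.471 and 0.454, with a median per member of 0.468 and 0.449.

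The balance between the 2 alpha genes was not the same in both libraries. Hba-a2 had 0.716 UMIs per UMI of Hba-a1 in replicate 1 and 0.269 in replicate 2. The same ratio in free RNA, taken from barcodes with more than 100 and fewer than 500 UMIs, was 0.728 and 0.277, so it followed the library. The ratio of Hbb-bt to Hbb-bs was 0.209 and 0.154 in members and 0.154 and 0.122 in free RNA. The paired adult genes are near-identical copies. How the counting assigned reads that match both is not given in the sources used here, so the split within a pair is uncertain. If such reads were left out, the sums over a pair would be too low as well, which was not tested.

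**Figure D2:**
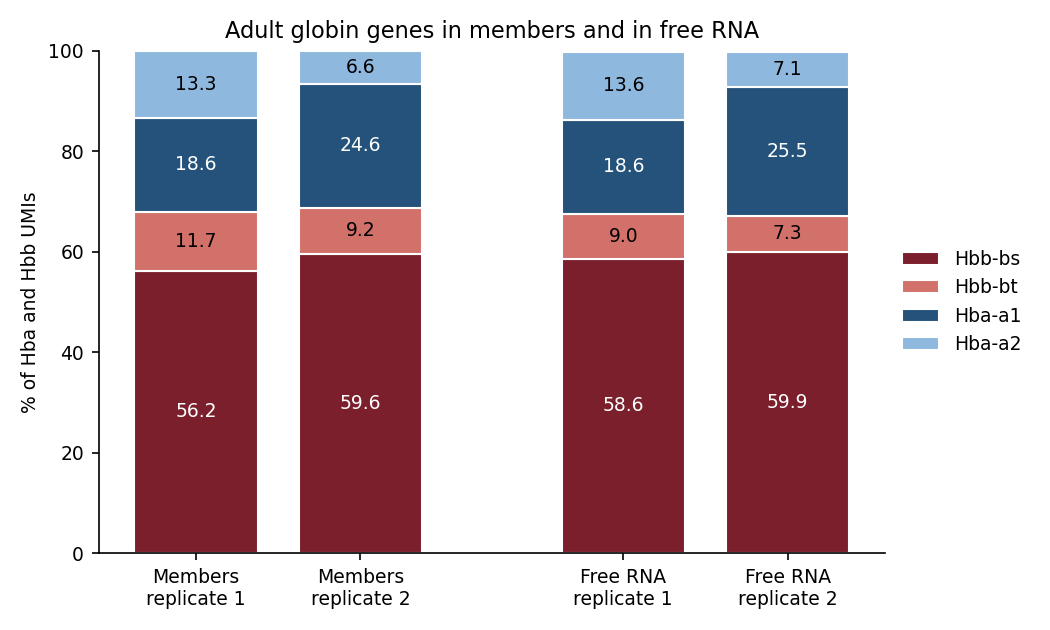
Share of Hba and Hbb UMIs (y axis, percent) that came from each of the 4 adult genes, for the members and for free RNA of each library. Hba-a2 takes 13.3% in members of replicate 1 and 6.6% in those of replicate 2, and free RNA of each library shows a similar split.

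Embryonic haemoglobin genes, which belong to the primitive red cells of the yolk sac, were nearly absent. Hbb-bh1 and Hbb-bh2 had no UMI in any member. Hbb-y had 813 and 4 UMIs, and 805 of them were in 1 member of replicate 1. That member had 2019 UMIs, a haemoglobin share of 61.0%, 254 UMIs of the embryonic alpha gene Hba-x, 91 of Hba-a1 and 11 of Hbb-bs. Over all members, Hba-x had 256 and 17 UMIs. The theta-like genes Hbq1a and Hbq1b, which the rule did not use, lie in the alpha cluster and had 50 and 19 UMIs, and 52 and 54 UMIs. Being close copies of each other, they carry the same uncertainty of assignment.

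Outside haemoglobin the members were shallow. They had a median of 563.5 and 715 other UMIs from 226 and 232 genes, while the other kept barcodes had 12695.5 and 12914 such UMIs from 3675.5 and 3693 genes. Mitochondrial genes gave 3.78% and 4.15% of those UMIs in members and 5.28% and 5.67% in the other barcodes (medians). A free-RNA barcode held on average 212 and 196 UMIs outside the haemoglobin genes, which equals 24.3% and 18.6% of the mean member and 31.0% and 25.4% of the mean member from 50%. Free RNA can therefore set low levels in members, and its level is given beside the marker lists and some of the low genes, and call counts after its subtraction beside the main lists. Levels below are CPM unless stated otherwise, that is, UMI counts scaled to the same total for each class and library, with the haemoglobin genes left out of that total. Each UMI marks the 3' end of 1 molecule, so the level does not grow with transcript length.

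The label holds against the markers that the rule did not use. Alas2, the red cell form of the first enzyme of haem synthesis, had 8212 and 7397 CPM in members and 2.13 and 1.84 in the other barcodes. Isg20, an RNA exonuclease, had 1513 and 1669 against 0.713 and 0.822. Tspo2, an erythroid membrane protein that binds cholesterol, had 737 and 1134 against 0.600 and 0.980. The 3 together gave 9.13 and 10.8 UMIs per member, 0.0743 and 0.0725 per other barcode and 0.00687 and 0.00527 per free-RNA barcode. In each of these sums the members stood above both other classes in both libraries, and members under 50% did so as well, with 9.42 and 11.1. A further list of 9 red cell genes, which includes Car2 and Tfrc that kidney cells also express, gave 3.70 and 3.70 UMIs per member, 1.55 and 1.47 per other barcode and 0.0218 and 0.0192 per free-RNA barcode. On that list members under 50% had 1.42 and 3.15, which in replicate 1 was below the other barcodes.

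Markers of other cell types were near the level of free RNA in the members from 50%. For 11 lists of markers of blood, vessel, stroma and nephron cells, the summed UMIs per member from 50% were 0.978 to 1.57 times those of a free-RNA barcode in replicate 1 and 0.903 to 1.23 times in replicate 2. Of the 7 megakaryocyte and platelet markers, Ppbp, Gp9 and Gp5 were at 0 in all members, and of the 6 neutrophil markers, Camp, Ltf and Retnlg were at 0. Early erythroid progenitor markers (Kit, Gata2, Cd34, Myb, Cpa3 and Ifitm1) gave 0.0347 and 0.0194 UMIs per member from 50%, against 0.0266 and 0.0205 per free-RNA barcode.

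Members under 50% carried more of most of these markers, though not of all. Podocyte markers gave 9.50 and 12.5 UMIs per barcode in them, endothelial markers 10.8 and 6, stromal markers 9.08 and 5.69, and macrophage markers 7.25 and 0.0769. In the other kept barcodes, which hold the kidney cells of the label, the same sums were 20.2 and 20.1, 12.5 and 8.81, 19.8 and 20.3, and 5.998 and 5.25. Neutrophil markers were at 0 in the members under 50% of both libraries, megakaryocyte markers gave 0.5 and 0, and proximal tubule markers gave 0.333 and 4.23 against 0.389 and 0.386 in free RNA. These means rest on few members. A single member held 83 of the 114 podocyte marker UMIs of the members under 50% in replicate 1 and another 90 of 162 in replicate 2. For endothelial markers 1 member held 55 of 130 and 34 of 78, for stromal markers 46 of 109 and 38 of 74, and for proximal tubule markers 49 of 55 in replicate 2. One member of replicate 1, at 35.6% haemoglobin, had 81 of that library's 114 macrophage marker UMIs in members. The part of mixed droplets in these members was not tested. Scrublet, which scores likely doublets, placed 15 and 5 members among the 310 and 212 kept barcodes with the highest scores. That number was set beforehand at 0.8% per 1000 kept barcodes, while Scrublet's own threshold marked 63 and 22 kept barcodes.

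**Figure D3:**
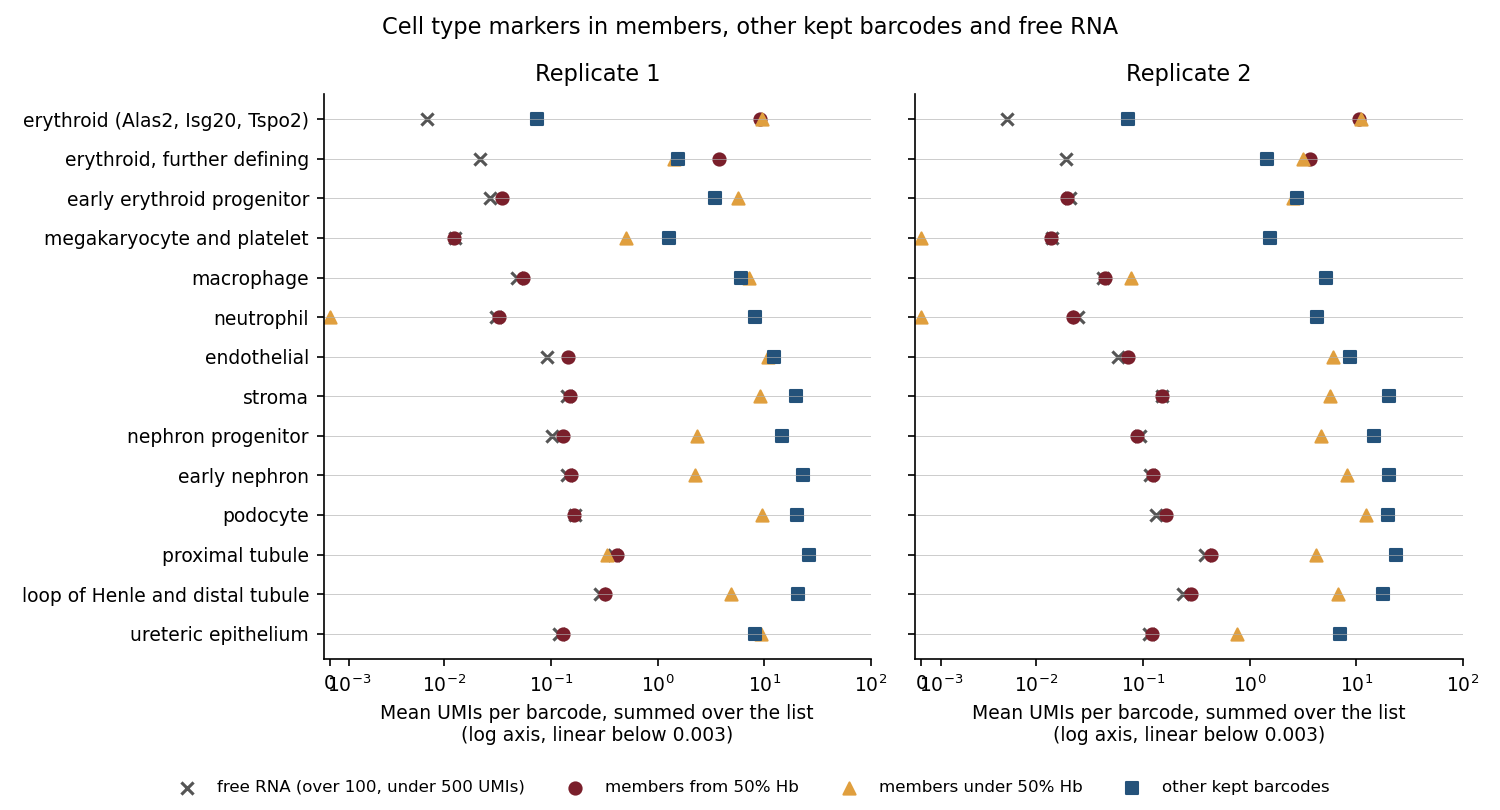
Mean UMIs per barcode summed over each marker list (x axis, logarithmic, linear below 0.003) in free RNA, members from 50% haemoglobin, members under 50% and the other kept barcodes, for each library. For the erythroid lists the members stand above free RNA, and for the lists of other cell types the members from 50% lie beside it, at 0.903 to 1.57 times its level.

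Each gene outside the haemoglobin families was then tested between members and the other kept barcodes, with UMIs summed per library. Of 16187 genes tested, 801 (4.95%) passed, 615 (3.8%) higher and 186 (1.15%) lower in members (edgeR's quasi-likelihood test, Benjamini-Hochberg adjusted p under 0.05). DESeq2 called 521 higher and 5 lower, and edgeR without the library as a block called 94 lower, so the lower calls depend on the test. The scale matters here because few genes make up so much of a member's RNA. TMM scaling put the median gene at a log2 fold change of -0.24, and scaling by totals alone put it at -1.20, with 371 genes higher and 5704 lower. Of the 615 genes called higher, 512 stayed above 0 by totals and 367 were also called. Fold changes below are on the TMM scale, and changes of direction by totals are named.

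In members from 50%, the 186 lower genes sat near the free-RNA level. Their median level per barcode was 0.876 and 0.789 times that of a free-RNA barcode. For the 615 higher genes it was 7.44 and 9.44 times. In members from 50%, 1068 genes passed (6.61%), 714 higher (4.42%) and 354 lower (2.19%). After free RNA was subtracted, 322 genes were higher and 9 lower. Met, a growth factor receptor of epithelia, Retnlg, a neutrophil gene, Cldn19, a tight junction gene of the nephron, and the predicted gene Gm10138 were the largest falls by the naming rule, and none had a UMI in any member. Against a floor of 3 UMIs per library, Met was at least 4.59-fold and 3.71-fold lower than the 31.4 and 28.2 CPM of the other barcodes. A member at the free-RNA level would give few UMIs of it too, namely 2.90 and 1.84 over all members of each library.

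Haem, the iron-holding ring of haemoglobin, is built by a chain of enzymes shared between the mitochondrion and the cytosol. Of the 18 genes listed for haem synthesis and transport, all were tested, 11 were higher in members and 0 lower, the largest adjusted p among them being 1.88e-05 (edgeR's quasi-likelihood test, Benjamini-Hochberg). The list's median log2 fold change was 2.02, beside -0.24 over all genes tested, and by totals 10 were higher and 2 lower. Alas2 lies on chromosome X at 150547417 to 150570622 and had the largest difference, with a log2 fold change of 12.91 (SE 0.30). Its 3599 and 2916 UMIs in members compare with 263 and 175 in all other kept barcodes, which are far more numerous than the members.

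Further along the pathway the differences were smaller. Fech, which inserts iron into the ring, had 1595 and 1672 CPM in members against 18.4 and 18.0 (log2 fold change 7.46, SE 0.21). Slc25a39, a mitochondrial carrier for glutathione, had 2391 and 2146 against 119 and 116. Urod, the fifth enzyme, had 349 and 297 against 50.5 and 51.1. The other enzymes Alad, Cpox and Ppox also passed, at log2 fold changes of 1.94, 2.09 and 2.37. On the side of haem breakdown, Blvrb, a biliverdin reductase abundant in red cells, had 3256 and 2829 against 49.1 and 54.9 (6.84, SE 0.22). Haem oxygenase, Hmox1, passed at 1.70 with 20 and 16 UMIs in members. With free RNA subtracted, 8 of the 11 were called, and Cpox, Ppox and Hmox1 were not.

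Not all of the haem list was higher. Uros, the fourth enzyme, had 5 and 4 UMIs in members and did not pass (log2 fold change 1.90, SE 0.83). The mitochondrial transporters Slc25a38, Abcb10 and Abcb6 had 2 to 5 UMIs in each library. The haem exporter Flvcr1, named Mfsd7b in the files, had 1 and 5 UMIs. Tmem14c, a carrier of the haem precursor, had 75.3 and 98.9 CPM in members and 171 and 167 in the other barcodes, a log2 fold change of 0.01 by TMM and -0.96 by totals. The genes of this list with under 10 UMIs did not pass and had wide standard errors, as the value for Uros shows, so a difference in them is not shown to be absent.

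Iron reaches the mitochondrion from transferrin and from ferritin stores. Among 16 genes listed for iron uptake and storage, 15 were tested, 7 were higher and 0 lower, with a largest adjusted p of 0.0158 (edgeR's quasi-likelihood test, Benjamini-Hochberg). The median of the list was 0.12, by totals 6 were higher and 5 lower, and after free RNA was subtracted 6 were called. Slc25a37, mitoferrin, which carries iron into mitochondria, had 2051 and 2364 CPM in members against 16.2 and 15.4 (8.09, SE 0.22). Ncoa4, the receptor that sends ferritin for breakdown, had 194 and 221 against 6.82 and 7.11 (5.86, SE 0.23). The ferritin chains Ftl1 and Fth1 were among the most abundant RNAs of members. Ftl1 had 27284 and 29006 CPM against 2103 and 2037, and Fth1 had 20608 and 14529 against 1682 and 1557.

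Glrx5 and Isca1, both of iron-sulfur cluster assembly, were among the called iron genes. Glrx5 had 1285 and 1535 CPM against 176 and 170, and Isca1 had 123 and 198 against 11.5 and 13.3. The transferrin receptor Tfrc, by which immature red cells take up iron, was low, with 18 and 13 UMIs in members. Its levels of 41.1 and 33.0 CPM lay beside 30.8 and 35.2 in the other barcodes, so the classes overlapped on that scale. It passed by TMM at 1.14 (SE 0.34) and stood at 0.18 by totals. The second receptor Tfr2 had no UMI in any member and was not tested, and Steap3, the endosomal iron reductase, had 0 and 1 UMI.

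The red cell membrane is held by a spectrin and actin skeleton tied to proteins that span it, band 3 among them. All 26 listed genes were tested, and 18 were higher and 0 lower, with a median log2 fold change of 4.74 and a largest adjusted p of 0.0018 (edgeR's quasi-likelihood test, Benjamini-Hochberg). By totals 18 were higher and 3 lower, and after free RNA was subtracted 15 were called. Slc4a1, band 3, the anion exchanger, had 218 and 162 UMIs in members and 58 and 20 in all other barcodes (11.34, SE 0.25). Rhd, of the Rh complex, had 53 and 59 against 12 and 17 (10.92, SE 0.70).

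Other genes of the skeleton and surface passed on many or few UMIs. Epb41, protein 4.1, was well covered at 1241 and 1149 CPM against 57.6 and 53.0, as was Mpp1 at 653 and 753 against 33.4 and 29.5. The blood group genes Kel, Icam4, Ermap and Xk passed with 4 to 14 UMIs in each library. Rhag, the partner of Rhd, had 9 and 6 UMIs in members against 1 and 0 in the other barcodes. Surface proteins shared with other cells differed less, with a log2 fold change of 3.62 for Cd24a, 1.97 for Bsg and 1.41 for Cd47. The listed genes that did not pass were Ank1, Dmtn, Add1, Add2, Tpm1, Gypc, Aqp1 and Kcnn4. Ank1, the red cell ankyrin, had 3 and 3 UMIs.

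**Figure D4:**
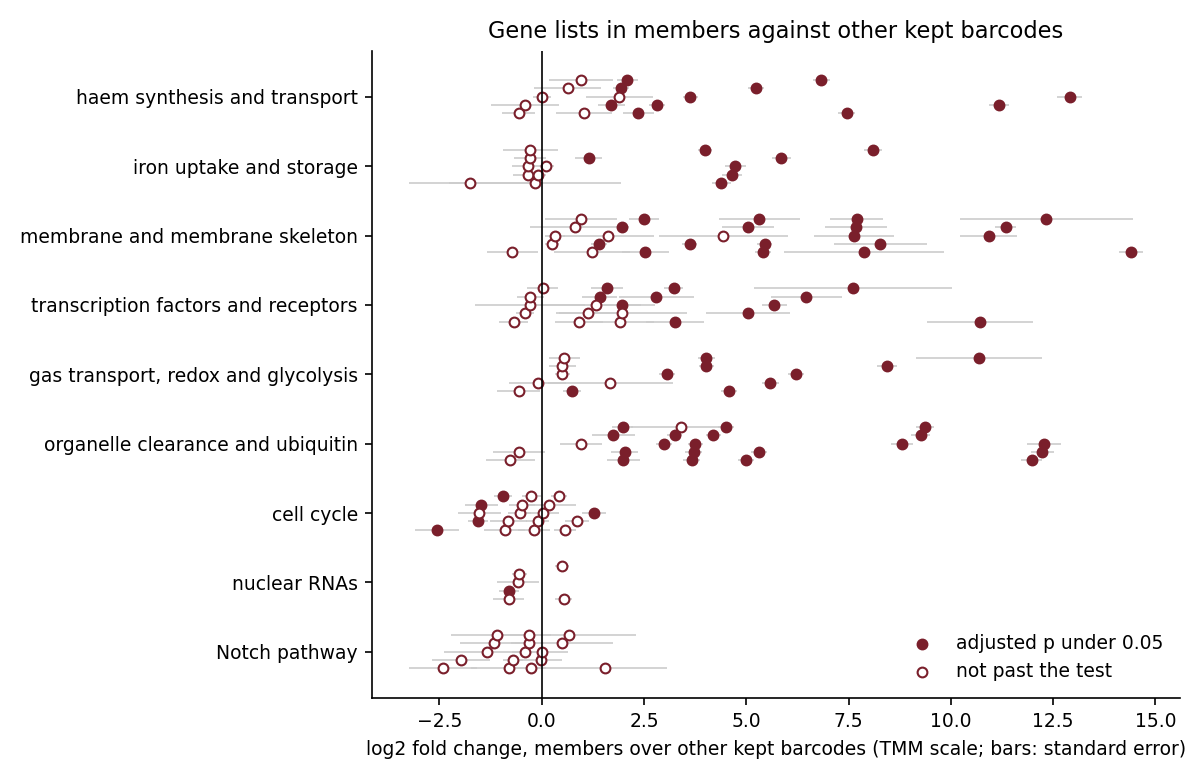
Log2 fold change of each tested gene of 9 lists between members and the other kept barcodes (x axis, TMM scale, bars are standard errors). Filled points passed the test at an adjusted p under 0.05 and open points did not. The points furthest right are red cell genes such as Alas2 at 12.91, and no gene of the Notch list passed.

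Transcription factors that direct red cell formation were found at low counts. Of 22 listed factors and receptors, 21 were tested, 11 were higher and 0 lower, with a median of 1.91 and a largest adjusted p of 0.0424 (edgeR's quasi-likelihood test, Benjamini-Hochberg). By totals 8 were higher and 4 lower, and after free RNA was subtracted 5 were called. E2f2, a cell cycle factor of late erythroblasts, had 53 and 53 UMIs in members, 121 and 134 CPM against 4.59 and 5.13 (5.68, SE 0.31). Lmo2, a bridge in the Gata1 and Tal1 complex, had 176 and 91.3 CPM against 28.2 and 26.5 (3.22, SE 0.24).

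The master regulators themselves rested on few molecules. Klf1 had 12 and 14 UMIs in members and 88 and 63 in the other barcodes (6.47, SE 0.86). Gata1 had 3 and 3 UMIs against 13 and 3 (7.60, SE 2.42). Hemgn, an erythroid nuclear protein, had 15 and 13 against 4 and 4. Tal1, with 6 and 4 UMIs, and Gata1 were among those not called once free RNA was subtracted. Epor, the erythropoietin receptor, had 3 and 6 UMIs and did not pass (1.91, SE 0.83), and neither did Kit, Gata2 and Myb of the progenitor stages.

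Most tested genes of the list for gas transport, redox and glycolysis were higher as well, though not all. Of 16 listed genes 15 were tested, 9 were higher and 0 lower, with a median of 3.07 and a largest adjusted p of 0.0246 (edgeR's quasi-likelihood test, Benjamini-Hochberg), and by totals 8 were higher and 2 lower. After free RNA was subtracted 8 were called. Bpgm makes 2,3-bisphosphoglycerate, which lowers the oxygen affinity of haemoglobin. It had 7345 and 6258 CPM against 39.0 and 37.3 (8.44, SE 0.25). Car2, carbonic anhydrase 2, had 1440 and 1388 against 38.8 and 35.9 (6.21, SE 0.20), and Car1 had 14 and 7 UMIs against 3 and 3. Nt5c3, which clears pyrimidine nucleotides left by RNA breakdown, had 509 and 393 against 35.8 and 37.7.

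Gpx1, a glutathione peroxidase, had 6049 and 4498 CPM against 222 and 203 (5.59, SE 0.22). Prdx2, a peroxiredoxin, had 5919 and 6456 against 719 and 767. Catalase, Cat, and Gclm, of glutathione synthesis, passed at 3.07 and 4.02. Sod1 passed at 0.74 by TMM and was at -0.23 by totals. Of the listed glycolytic genes, Pklr, Hk1, Pfkm, Aldoa and Pgk1 did not pass, nor did the lactate carrier Slc16a1. Pklr, the red cell pyruvate kinase, had 2 and 1 UMIs.

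Genes of organelle clearance and ubiquitin, by which a reticulocyte removes its contents, were mostly higher in members. Of 24 listed genes 23 were tested, 19 were higher and 0 lower, with a median of 3.71 and a largest adjusted p of 0.0221 (edgeR's quasi-likelihood test, Benjamini-Hochberg). By totals 18 were higher and 2 lower, and after free RNA was subtracted 16 were called. Trim10, a ubiquitin ligase of late erythroblasts, had 68 and 73 UMIs in members against 6 and 8 (12.27, SE 0.41). Isg20 had 663 and 658 UMIs in members against 88 and 78 (11.98, SE 0.26). Ube2l6, a conjugating enzyme for ubiquitin and Isg15, had 1059 and 1015 CPM against 2.86 and 3.29 (9.37, SE 0.23).

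Mkrn1, a ubiquitin ligase, was among the 10 most abundant RNAs of members, at 13719 and 14587 CPM against 61.2 and 62.5 (8.81, SE 0.28). Bnip3l, the receptor that sends mitochondria to autophagy in reticulocytes, had 2537 and 2935 against 230 and 237 (4.52, SE 0.19). The autophagy genes Gabarapl2 and Map1lc3b had log2 fold changes of 4.99 and 3.75, and Bcl2l1, which protects late erythroblasts from cell death, had 3.66. Ulk1, Ypel4 and Dnase2a were among those that did not pass, with 2 to 14 UMIs in the libraries where they were seen. Trim58 had 0 and 1 UMI and was not tested. The counts of higher genes in members from 50% were 11 for haem, 7 for iron, 19 for membrane, 11 for transcription factors, 10 for gas and redox and 20 for clearance, with 0 lower in each.

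For 20 genes taken as red cell genes a relative was set beside each. Not all relatives were widely expressed, since Gata4 had 4 and 1 UMIs in the other barcodes and Tfr2 had 20 and 8. Tfrc, set beside Tfr2, was itself widely expressed, with 3797 and 3342 UMIs there. In 13 pairs the red cell gene was higher in members and its relative was not called, in 2 both were higher, in 2 the relative was not tested, and in 3 neither was called. Over all genes tested 3.8% were higher, while these pairs were listed because the first gene was taken as a red cell gene. The largest difference was for Alas2, at 12.91, and Alas1, at -0.63, where Alas1 had 4 and 3 UMIs in members against 3380 and 2182 in the other barcodes. Slc4a1, at 11.34, stood beside Slc4a2, at -0.47, and Rhag, at 12.34 on 9 and 6 UMIs, beside Rhbg, at 1.19. Tspo2, at 11.18, stood beside Tspo, at 1.495, and Epb42, at 7.68, beside Tgm2, at -0.93. Tspo and Pgam1, the relative of Bpgm, were the relatives that were also higher. The list was drawn up with these data known, so its counts describe the pairs and support nothing further.

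The most abundant RNA of members outside haemoglobin was Gm42418, a predicted gene whose locus is known to overlap ribosomal RNA sequence (chromosome 17, 39846354 to 39848202). It gave 17.7% and 19.0% of the members' UMIs outside haemoglobin, 1.21% and 1.52% of those of the other barcodes and 15.3% and 16.5% of free RNA. Per barcode that was 154 and 200 UMIs in members, 262 and 303 in the other barcodes, and 32.6 and 32.3 in free RNA, so its larger share in members came with fewer molecules. Leaving it out together with AY036118 gave 798 called genes. The 10 most abundant genes held 31.2% and 31.9% of the members' UMIs outside haemoglobin, and the same genes held 6.15% and 6.47% in the other barcodes. Beside the ferritins and Mkrn1, they included Tpt1, Ubb, a ubiquitin gene, and Oaz1, which restrains polyamine synthesis, at log2 fold changes of 2.42, 3.66 and 4.32. The mitochondrial genes mt-Atp6 and mt-Co3 passed at 0.95 and 0.91 by TMM and were at -0.01 and -0.06 by totals. Of the 81 ribosomal protein genes tested, 23 were higher and 0 lower by TMM, and 4 were higher and 65 lower by totals, so no direction is given for them.

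Genes outside the lists that differed most include several with no known red cell role given here. Gm42749, a predicted gene, had 53 and 46 UMIs in members against 5 and 7 (11.98, SE 0.76). Hbq1b had 52 and 54 against 7 and 6 (11.97, SE 0.76). Rec114, a gene named for meiotic recombination, had 424 and 424 CPM in members against 1.13 and 1.53 (9.30, SE 0.23). Isg15, a ubiquitin-like protein, had 1278 and 632 against 11.2 and 11.3 (7.30, SE 0.21). Fam220a had 2800 and 2945 against 27.6 and 26.4, and AI662270, Dhrs11 and Ncf4 had log2 fold changes of 7.31, 7.07 and 7.03.

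Most cell cycle genes did not pass between members and the other barcodes. Of 18 listed genes, 1 was higher, 4 were lower and 13 did not pass by TMM, with a largest adjusted p of 0.00862 (edgeR's quasi-likelihood test, Benjamini-Hochberg), and by totals 0 were higher and 14 lower. The median was -0.37, beside -0.24 over all genes. In members from 50%, 3 were higher (Rrm2 and the cyclins Ccna2 and Ccnb2) and 4 lower, and with free RNA subtracted 0 were higher and 1 lower. Members under 50% held 35.8% and 43.6% of these UMIs in members. Rrm2, a subunit of the enzyme that makes deoxyribonucleotides, was the higher one, at 47.9 and 50.7 CPM against 37.2 and 42.0, with a log2 fold change of 1.29 by TMM and 0.32 by totals. Ccnb1, cyclin B1, had 2 and 2 UMIs in members against 7001 and 5037 (-2.55, SE 0.54), and Cenpf, Top2a and Mcm3 were also lower. All 18 genes together gave 0.378 and 0.427 UMIs per member from 50% against 0.219 and 0.180 per free-RNA barcode and 35.2 and 32.5 per other barcode.

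Of 6 listed nuclear RNAs, 0 were higher and 1, Xist, was lower by TMM, and by totals all 6 were lower. Neat1 was higher (0.87) and Xist and Kcnq1ot1 were lower (-1.10 and -1.49) in members from 50%. With free RNA subtracted, 0 of the 6 passed edgeR's quasi-likelihood test and 2 had an unadjusted p under 0.05. Members under 50% held 36.5% and 51.0% of these UMIs in members. Malat1, which stays in the nucleus, had 10466 and 10142 CPM in members and 14299 and 13521 in the other barcodes, a log2 fold change of 0.54 by TMM and -0.43 by totals, and did not pass. Per barcode the 6 listed nuclear RNAs gave 6.38 and 5.63 UMIs in members from 50%, 3.83 and 2.94 in free RNA, 150 and 163 in members under 50% and 354 and 284 in the other barcodes. Xist had 160 and 0 UMIs in members and 146992 and 19 in the other barcodes, so it followed the library in both classes.

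Notch pathway genes did not pass by TMM. Of the 16 listed genes, 0 were called by edgeR's quasi-likelihood test and 0 by DESeq2, with 3 at an unadjusted p under 0.05 in the former, and 9 were lower by totals. Over all 16187 genes 4.95% were called by TMM and 5704 were lower by totals, so the absence of calls among 16 genes is near the background. The count was also 0 in members from 50%, with 2 at an unadjusted p under 0.05. Rbpj, the gene changed by the genotype, had 7 and 10 UMIs in members, 16.0 and 25.4 CPM against 47.5 and 48.1 (-0.26, SE 0.37). Only transcript ends are counted, and a transcript shortened by the deletion may still carry its end, so these UMIs do not check the deletion. In members from 50%, Rbpj gave 0.00816 and 0.00554 UMIs per barcode, against 0.00929 and 0.00725 in free RNA. EYFP, an added feature for a fluorescent protein, had 27 and 10 UMIs in 13 and 3 members, and in members from 50% it gave 0.0245 and 0.00277 UMIs per barcode against 0.00814 and 0.00706 in free RNA.

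Members were then compared among themselves, those above their library's median haemoglobin share (the upper group) against those at or below it (the lower group). These groups are ranges of 1 continuous measure and not cell types, and 87 and 69 members lay within 1 point of the median. The upper group had a median of 5080 and 4829 UMIs and the lower group 3449 and 3992. Outside haemoglobin, which is what the test uses, the order was reversed, with 506 and 625 in the upper group and 656 and 796 in the lower. UMIs outside haemoglobin are part of the total that the share is taken from, so this order is partly built in by the split. Of 1863 genes tested, 237 (12.7%) passed, 197 (10.6%) higher and 40 (2.15%) lower in the upper group (edgeR's quasi-likelihood test, Benjamini-Hochberg). DESeq2 called 109, of which 3 were lower. By totals 61 were higher and 525 lower, and the median gene moved from -0.01 to -0.76. All members under 50% fall in the lower group. Among members from 50%, split at their own median, 48 of 957 genes passed (5.02%), 2 higher (0.209%) and 46 lower (4.81%). The 2 higher genes were also called in all members, and of the 46 lower genes 13 were, which is 28.3% of the 46 and 32.5% of the 40.

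In all members, every list of the red cell programme except the transcription factors had genes called higher in the upper group. Of the 22 listed factors and receptors only 3 could be tested, with 0 called and a median of 0.87. By edgeR's quasi-likelihood test 2 of these 3 had an unadjusted p under 0.05. The counts were 5 higher and 1 lower of 11 tested haem genes, 6 and 0 of 8 iron genes, 4 and 0 of 12 membrane genes, 4 and 0 of 9 gas and redox genes, and 11 and 0 of 17 clearance genes. By totals they were 4 and 4, 4 and 0, 1 and 3, 2 and 1, and 8 and 4, beside 61 and 525 of 1863 over all genes, since that scaling lowers every gene. In members from 50% the same counts were 2 and 3 of 10, 0 and 0 of 8, 0 and 2 of 11, 0 and 2 of 8, and 0 and 5 of 17. Outside the lists, Ccndbp1, a cyclin D binding protein, and Cdc25b, a cell cycle phosphatase, had the largest rises in all members among genes with at least 20 UMIs in the upper group of each library, at 2.17 (SE 0.32) and 2.06 (SE 0.37), and neither was called in members from 50%.

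Among members from 50%, the genes higher in the upper group belonged to haem synthesis. Alas2 had 13270 and 12661 CPM in the upper group and 8443 and 8285 in the lower (log2 fold change 0.76, SE 0.23). Slc25a39 had 3990 and 3535 against 2357 and 2419 (0.78, SE 0.25). Adjusted p was 0.0209 and 0.036 (edgeR's quasi-likelihood test, Benjamini-Hochberg), and the upper group had the higher level in both libraries for each gene. Fech, Slc25a37, Bpgm and Ftl1 had values between 0.52 and 0.62 and did not pass in members from 50%, although each passed in all members at 1.75 to 1.86.

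Also among members from 50%, 3 of 10 tested haem genes were lower in the upper group. So were 2 of 11 membrane genes and 2 of 8 gas and redox genes. Cpox had 21.4 and 25.7 CPM in the upper group and 230 and 80.4 in the lower (-2.57, SE 0.60). Hmox1 had no UMI in the upper group and 18 and 14 UMIs in the lower, which against a floor of 3 UMIs is at least 4.28-fold and 3.37-fold lower. Epb42, protein 4.2, had 0 and 8.56 CPM against 153 and 80.4. Slc4a1 had 207 and 428 against 959 and 668 (-1.27, SE 0.32), and Car2 had 551 and 1310 against 2801 and 2351 (-1.44, SE 0.28). Gpx1 had 4769 and 4297 against 9897 and 7561 (-0.81, SE 0.23). Trim10, Xpo7, Fbxo30, Arl4a and Pim1 of the clearance list were lower as well, at -1.32 to -2.80, and Malat1 was at -0.77.

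Among members from 50%, genes outside the lists were lower in the upper group as well, and of those with 20 or more UMIs in the lower group of each library Ppp1r15a and Tcp11l2 (-4.29, SE 0.73) fell most. Ppp1r15a, a regulator of translation under stress, had 28.6 and 17.1 CPM in the upper group against 520 and 588 (-4.39, SE 0.49). Gadd45a had 100 and 77.0 against 1122 and 588. The metallothioneins Mt1 and Mt2, which bind zinc and copper, had 300 and 582 against 1949 and 1392, and 57.2 and 42.8 against 500 and 483. Ranbp10 (-3.57), Tmcc2 (-3.50), Junb and Btg2 were lower too, and so was Eif2ak1, the haem-regulated kinase of translation, at -2.40 (SE 0.60). In these genes the lower group stood above the upper in both libraries. Apart from the genes the naming rule gave (Tcp11l2, Ppp1r15a, Junb and Ranbp10), those of members from 50% were chosen for mention after their values were seen.

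**Figure D5:**
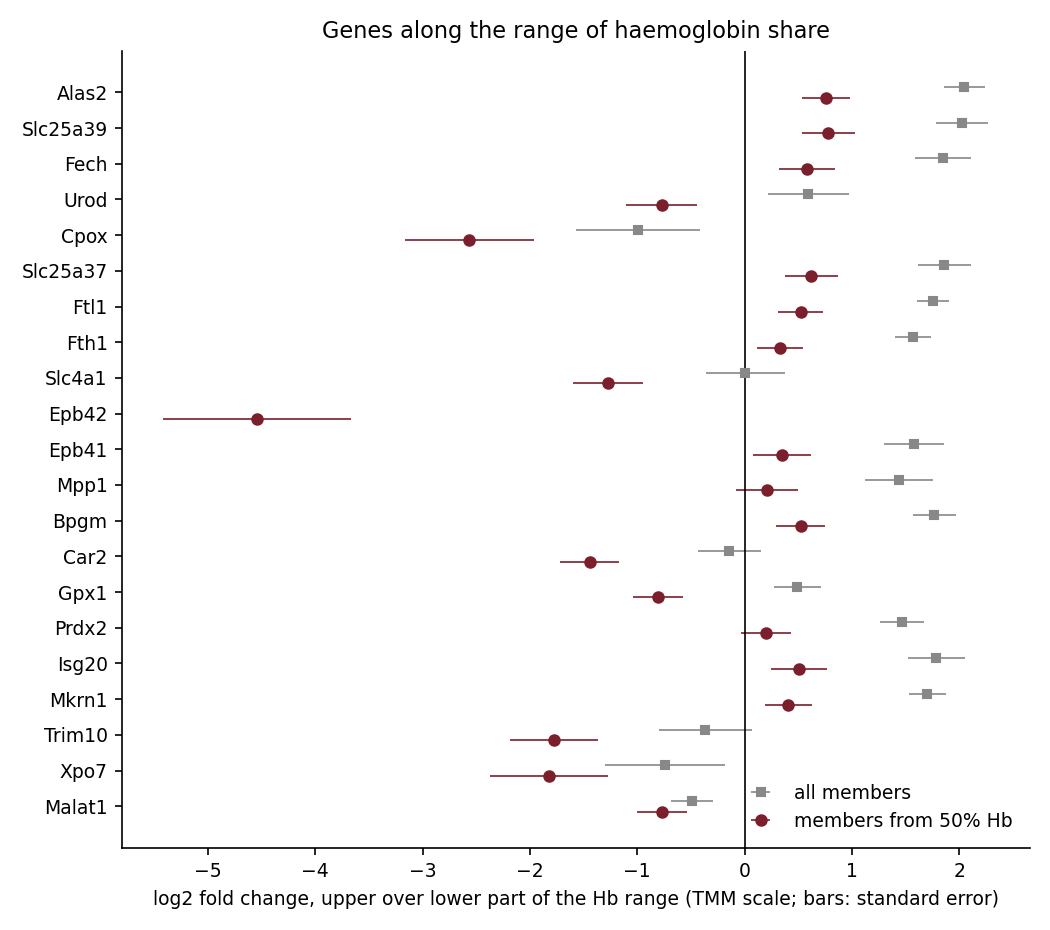
Log2 fold change between members above and at or below the median haemoglobin share (x axis, TMM scale, bars are standard errors) for 21 genes, in all members and in members from 50%. Values for members from 50% lie to the left of those for all members (Epb42 was tested in the former alone), with Alas2 at 0.76 in place of 2.05 and Cpox at -2.57 in place of -0.99.

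The members of the libraries were last set side by side, with 1 library each and so no test. Of 1691 genes with a mean level of at least 50 CPM in members, 95 differed more than 2-fold, 77 higher in replicate 1 and 18 in replicate 2. Yipf4 had 191 and 20 UMIs in members, while the other barcodes had 68.1 and 56.5 CPM. Gm10709 had 77 and 2 UMIs and differed in the other barcodes too, at 473 and 4.82 CPM.

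Several of these differences came from 1 barcode. Of the 61 UMIs of Lyz2 and the 63 of Tyrobp in members of replicate 1, both genes of macrophages, 52 and 59 were in 1 member for each gene. Plk4 had 14 and 74 UMIs, of which 71 were in 1 member of replicate 2. Tmcc2, Gadd45a and Isg15 were higher in replicate 1 by 2.66, 2.02 and 2.02 times, while their levels in the other barcodes differed by 1.13, 0.909 and 0.984 times. These genes were chosen for mention after their values were seen.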

How the data were processed

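Single-cell RNA was measured in 2 libraries of mutant P0 kidneys. The deposited values are raw UMI counts per gene and barcode, unfiltered. Per the file headers the writing software was Cell Ranger version 4, while the submitters' processing notes name Cell Ranger 6.0.1 and mm10. The notes do not say which version made these files. The total was 163405630 UMIs in replicate 1 and 135436576 in replicate 2, over 28693 features. The libraries form 1 group, numbered in accession order.

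Barcodes with at least 2000 UMIs and at most 10% mitochondrial UMIs were kept (Python 3.11.15, scanpy 1.11.5 for Scrublet scores). Doublets were not removed in the values reported. UMIs were summed per library and class, without the 8 Hba and Hbb genes, and tested with edgeR 4.0.16 in R 4.3.3 (TMM, filterByExpr, quasi-likelihood test, library as a block, Benjamini-Hochberg adjustment over all genes tested, threshold 0.05). The library pairs the classes because both come from it. The fit had 1 residual degree of freedom per gene. The median prior degrees of freedom were infinite in both comparisons, so the spread pooled over genes took the place of each gene's own. On simulated data the comparison of members with other barcodes recovered 90.1% of 111 genes changed 4-fold and 43.8% of 89 changed 2-fold among 16245 genes, with 7 false calls. The comparison within members recovered 93.0% of 86 and 37.8% of 82 among 1985 genes, with 9 false calls. The simulated dispersion, a measure of spread, was above the fitted 0.0153 of the first comparison and below the fitted 0.0405 of the second. The rates of the second may therefore be too favourable. Unchanged genes kept the same share in every sum, so the large difference in composition between the classes was not simulated.

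Free RNA was to be read from barcodes with 10 to 100 UMIs. After the data were seen it was read from those with more than 100 and fewer than 500 UMIs, 91319 and 90906 barcodes. Gene coordinates come from RefSeq on GRCm38.p6, the same assembly as mm10. The symbols Flvcr1 and Tent5c were matched as Mfsd7b and Fam46c, and no feature matched Ahsp. The genes named are the given markers, up to 4 called genes of each list with the largest change, the same direction in both libraries and at least 20 UMIs in the higher class of each, the 8 largest rises and 4 largest falls outside the lists, the 10 most abundant genes, Rbpj and EYFP, and 5 of the paralog pairs. Some genes that this rule gives are not reported here. Genes named only to account for a list were named for that reason. The members, the lists and these rules were chosen with earlier results of these data known. Alternatives covered scaling, DESeq2 1.42.0, filters, doublets, the block, each library on its own and free RNA.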

Additional observations from a re-analysis of the deposited data

Results flagged for a closer look

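In replicate 2, Xist stood at 496 CPM in barcodes with 10 to 100 UMIs, which no comparison uses, while it stood at 0.198 CPM in barcodes with at least 2000 UMIs and at 1.28 in those with more than 100 and fewer than 500. In replicate 1 the same 3 values were 563, 1147 and 561. This drew attention because a signal appeared in barcodes outside the comparisons at a level far above that in the cells of the same library. Barcodes below the minimum of 2000 UMIs also held haemoglobin RNA. From 500 up to that minimum, 410 barcodes of replicate 1 and 289 of replicate 2 had at least 20% haemoglobin UMIs, which is 12.01% and 9.32% of the barcodes in that range, with a median haemoglobin share of 65.6% and 64.1%. They are not members and were drawn to attention because they carry the signal that chose the members outside the data compared. A further 10 and 3 barcodes reached the minimum and the haemoglobin threshold but exceeded the mitochondrial limit.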

How the results depend on the processing

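Members against the other barcodes gave 801 called genes (615 higher, 186 lower). The count was 6075 by totals (371 higher, 5704 lower), 526 with DESeq2 (5 lower) and 331 with free RNA subtracted (322 higher, 9 lower). Lower calls numbered 123 with DESeq2 size factors in edgeR and 354 in members from 50% haemoglobin. The comparison within members, 237 called (197 higher, 40 lower), moved under more settings. It gave 109 with DESeq2 (106 higher, 3 lower), 586 by totals (61 and 525), 134 without a filter on low counts (96 higher), 383 with members from 10% haemoglobin (322 and 61) and 48 with those from 50% (2 higher). It gave 422 at a minimum of 1000 UMIs (330 and 92), 104 at 5000 UMIs (101 and 3) and 135 when the middle of the range was left out and equal groups from its ends were compared (129 and 6), and 125 lower calls with free RNA subtracted. The causes were not tested.

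The pairing of the classes by library was dropped in a fit with no replicate block. It gave 630 called genes against the other barcodes, with 94 lower, and 162 within members, with 26 lower.

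Members were 7.67% of kept barcodes as the mean of the libraries, 3.58% at a minimum of 5000 UMIs, 10.0% at 1000 UMIs and 18.1% at a mitochondrial limit of 5%. At 1000 UMIs their median haemoglobin share was 83.2%. Their median of 639 UMIs outside haemoglobin became 930 at 5000 UMIs and 530 at 1000 UMIs. With each library left out in turn, the ranges were 7.26% to 8.07%, 84.2% to 87.0% and 563.5 to 715 UMIs. A count of called genes could not be fitted on 1 library, which leaves no residual degree of freedom.

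Of the named genes, 11 values changed sign. Against the other barcodes these were Rbpj at 0.15 with members from 10% haemoglobin, EYFP at -0.10 with members from 50% and -0.49 by totals, mt-Atp6 at -0.0145, Malat1 at -0.43 and mt-Co3 at -0.062 by totals, and mt-Co3 at -0.0552 with each barcode weighted equally. Within members from 50% they were Cd24a at -0.0309, Bsg at -0.0785, Gclm at -0.10 and Cat at -0.0823. Depth is a limit in members, where many listed genes had under 10 UMIs in a library and wide standard errors.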
